A study of Sus scrofa with 9 samples.

Results

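miR-191 and miR-425 are 2 neighbouring miRNA genes, followed here in pig spleen. The animals belonged to the Ningxiang breed of China, and small RNA was sequenced from 3 libraries each at day 30, day 90 and day 210 after birth, which makes 9. The labels name no treatment or genotype, and sex and animals per library are not given in the sources at hand. All table rows named ssc-miR-191 or ssc-miR-425, either arm, were taken, which gave 4 sequences of the 975 entries left after repeats were dropped. The pair was chosen by name with earlier results of these same 9 libraries known, which may include the level of miR-191. The level and the rank of miR-191 are therefore described without a test, and the tests further on are no independent support for that choice.

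A miRNA is cut from a hairpin precursor that can yield a mature strand from either arm (5p and 3p). One strand is usually kept in the silencing complex and pairs with target transcripts through its seed, while the other is mostly degraded. In human, miR-191 and miR-425 lie close together in an intron of DALRD3 and are transcribed together. In the RefSeq annotation of the pig (assembly Sscrofa11.1) MIR425 and MIR191 are neighbours with 0 genes between them, and DALRD3 spans both. Positions are not printed because the build behind the table is not given in the sources used here. miR-191 is abundant in many tissues and in blood cells and supports T cell survival in mouse. miR-425 is induced by inflammatory signalling in human cells. miR-191 has also been proposed as a reference in quantitative PCR.

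The 4 sequences are shown as the table lists them, 5′ to 3′ and in DNA letters, because both arms of each hairpin enter the ratios described further on. Capitals mark the seed (bases 2 to 8).
miR-191: cAACGGAAtcccaaaagcagct
mir-191-p3: cTGCACTTggatttcgttccc
miR-425-5p: aATGACACgatcactcccgttga
miR-425-3p: cATCGGGAatgtcgtgtccgcc
They are 22, 21, 23 and 22 bases long and have 4 different seeds. None of these seeds occurs at bases 2 to 8 of any of the other entries; of the 453 entries with a pig miRNA name 313 (69.1%) share their seed with no other pig entry. The longest run of bases common to a pair of the 4 sequences is 5, between miR-191 and miR-425-3p. The name of the miR-191 entry carries the suffix R-1 and that of the miR-425-3p entry L+1R-1, which in the naming of the program used mark ends that differ by 1 base from the database form. The listed miR-425-3p thus begins 1 base before that form, and its seed is moved by 1 base with it.

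Values are normalised read numbers as the authors scaled them. The deposited values of a library summed to between 6.16 and 7.88 M (M, mega), and the estimated depth ran from 4.50 to 9.25 M reads, lowest in day 210 replicate 3. Depth was estimated from the steps between low values, on the assumption that the most frequent of them stands for 5 reads. All 36 values of the 4 sequences were whole multiples of the step (tolerance 0.01 of a step). Of all values above 0 in a library, 88.1% to 92.7% were. Whether each library is a separate animal is not stated, so a p-value covers the spread among libraries, which may be technical. In whole spleen, more cells of a type and more of a miRNA per cell cannot be told apart.

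miR-191 was the third most abundant sequence in every one of the 9 libraries and held 7.68% of all values. Its normalised read number was 440844, 488137 and 427822 at day 30 (replicates 1, 2 and 3). It was 556721, 638356 and 524325 at day 90, and 614863, 628717 and 435872 at day 210. All day 90 libraries lay above all day 30 libraries, while day 210 replicate 3 lay within the day 30 range and well below its own age group. Above miR-191 in mean level stood miR-26a (mean 975237) and miR-143-3p (mean 841041), a miRNA of smooth muscle. Below it came miR-99a-5p (281947) and miR-145-5p (279433), and no library of these 4 neighbours changed sides with miR-191.

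The 3p strand of the same hairpin, mir-191-p3, was scarce, at ranks 214 to 277. It stood at 233, 248 and 251 normalised reads at day 30, at 277, 369 and 232 at day 90, and at 203, 210.4 and 157 at day 210. Every day 210 library lay below every library of the earlier ages, and the day 30 libraries fell inside the range of day 90. These values rest on an estimated 98 to 363 reads per library, against 272398 to 689755 for miR-191.

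miR-425-5p, the more abundant strand of its hairpin, stood at ranks 57 to 65. Its normalised read number was 15181, 12881 and 13277 at day 30, 17464, 17542 and 14838 at day 90, and 15259, 14010.5 and 18312 at day 210. The ages overlapped. Day 210 replicate 3, where miR-191 was lowest for its age, held the highest miR-425-5p value of the 9 libraries. Its neighbours in mean level, miR-139-5p (16449), let-7d-3p (15768), miR-152 (15086) and miR-214-3p (14578), had library ranges that overlapped with that of miR-425-5p, so the order among them is not resolved.

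miR-425-3p stood at 4432, 4626 and 4286 normalised reads at day 30, 4850.2, 5709.9 and 4557 at day 90 and 4595, 5065 and 5064 at day 210, at ranks 92 to 104. Its highest library was 1.33 times its lowest, against 1.42 for miR-425-5p, 1.49 for miR-191 and 2.35 for mir-191-p3.

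**Figure D1:**
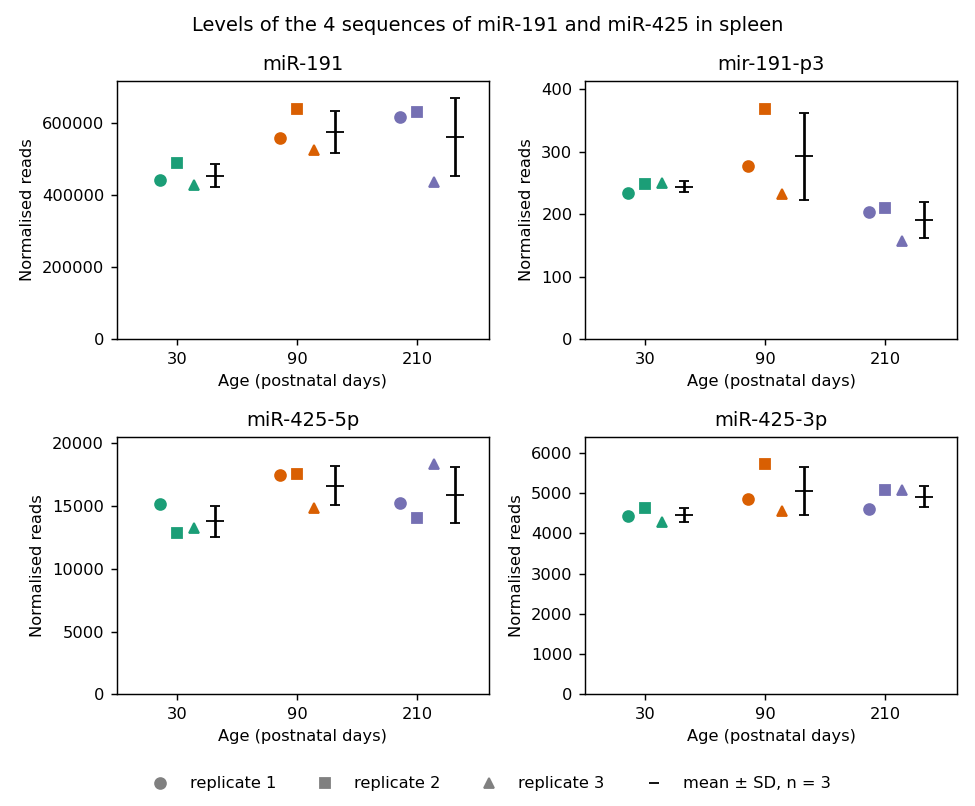
Normalised read numbers (y axis, from 0, a separate scale per panel) of the 4 sequences by age in postnatal days (x axis); symbols are replicates 1 to 3 and bars the mean ± SD of 3 libraries. mir-191-p3 is lowest in the 3 day 210 libraries (157 to 210.4), and day 210 replicate 3 stands at 435872 for miR-191, below the other day 210 libraries.

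The first comparison sets day 90 against day 30. miR-191 had a mean of 573134 ± 58761 at day 90 and 452268 ± 31739 at day 30 (SD, n = 3). The difference of 0.34 ± 0.16 (log2 fold change ± SE, 95% interval -0.02 to 0.69) did not pass the threshold in a fit across all sequences (limma, Benjamini-Hochberg adjusted p 0.366 over 630 tested). miR-425-5p differed by 0.27 ± 0.14 (16615 ± 1539 against 13779.7 ± 1229, adjusted p 0.395), miR-425-3p by 0.17 ± 0.13 (adjusted p 0.584) and mir-191-p3 by 0.24 ± 0.23 (adjusted p 0.709). All 4 estimates were above 0, also in each fit without 1 library, where miR-425-3p ran from 0.081 to 0.24 and mir-191-p3 from 0.055 to 0.39. Here 0 of the 4 sequences passed, against 1.11% of all tested. miR-191 alone had day 90 libraries that lay wholly above those of day 30; 14.1% of the tested sequences did so.

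At day 210 against day 30, miR-191 stood at 559817 ± 107563 and differed by 0.29 ± 0.16 on the log2 scale (95% interval -0.06 to 0.64, adjusted p 0.258). Without day 210 replicate 3 the difference was 0.46 and passed (adjusted p 0.0310). mir-191-p3 pointed the other way, at -0.37 ± 0.23 (190.0 ± 29.0 against 244 ± 9.24, adjusted p 0.329), with libraries wholly below those of day 30, as in 18.1% of the tested sequences. miR-425-5p differed by 0.20 ± 0.14 (15860.4 ± 2213 at day 210, adjusted p 0.390) and miR-425-3p by 0.14 ± 0.13 (4908 ± 271 against 4448 ± 171, adjusted p 0.522). Without 1 library miR-425-5p ran from 0.089 to 0.28. With the libraries rescaled to the same total, miR-191 came to 0.059, mir-191-p3 to -0.60, miR-425-5p to -0.034 and miR-425-3p to -0.090 (limma adjusted p 0.803, 0.102, 0.916 and 0.684), because that scaling moved the median of all sequences by -0.23. Relative to that median miR-191 stood 0.44 higher, miR-425-5p 0.34 and miR-425-3p 0.29 higher, and mir-191-p3 at -0.22. These distances are nearly the same under both scalings by construction, because rescaling moves all sequences alike. They were not tested. None of the 4 was called, against 9.21% of all tested.

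Between day 90 and day 210 no member passed. miR-191 differed by -0.05 ± 0.16 (95% interval -0.40 to 0.31, adjusted p 0.853) and miR-425-5p by -0.07 ± 0.14 (-0.39 to 0.24, adjusted p 0.760), both changing sign in some fits without 1 library (-0.14 to 0.12 and -0.18 to 0.013). miR-425-3p differed by -0.03 ± 0.13 (adjusted p 0.878), and -0.10 to 0.061 in those fits. mir-191-p3 had the widest difference of the 4 at -0.61 ± 0.23 (190.0 ± 29.0 against 293 ± 69.9; adjusted p 0.133), with all day 210 libraries below all day 90 libraries, as in 15.9% of the tested sequences. Rescaled to the same total, which moved the median of all sequences by -0.16, miR-191 came to -0.21, miR-425-5p to -0.24, miR-425-3p to -0.20 and mir-191-p3 to -0.77 (limma adjusted p 0.334, 0.365, 0.360 and 0.0686). At this step 8.10% of all tested sequences were called and none of the 4. Over the 3 ages together the F test called 10.3% of the sequences, and gave adjusted p of 0.262 for miR-191, 0.194 for mir-191-p3, 0.352 for miR-425-5p and 0.554 for miR-425-3p.

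Because the library totals differed between ages (mean ± SD 6.40 ± 0.219, 6.70 ± 0.316 and 7.52 ± 0.339 M, from the youngest to the oldest), the share of all values was also compared. miR-191 held 7.16%, 7.42% and 6.61% of the values at day 30. It held 8.70%, 9.57% and 7.45% at day 90, and 8.22%, 7.98% and 6.05% at day 210. The day 90 shares lay above those of day 30 (a difference of 1.51 percentage points; exact permutation p = 0.1, two-sided, the smallest that 3 against 3 allows). The difference between day 210 and day 30 was 0.355 points (exact permutation p = 0.6), and that between day 210 and day 90 was -1.16 points (exact permutation p = 0.4). miR-425-5p held 0.216 ± 0.0270% at day 30, 0.249 ± 0.0332% at day 90 and 0.212 ± 0.0388% at day 210 (exact permutation p over the 3 ages 0.321). Together 28 such tests of shares and ratios were made, and none passed after Benjamini-Hochberg adjustment. The smallest exact permutation p possible is 0.1 between a pair of ages and 0.00357 over the 3 ages. A single measure could therefore not pass over 28 tests, and the lack of calls does not show that the ages are alike.

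Ratios within a library do not depend on its scaling. miR-191 was 29.0, 37.9 and 32.2 times as abundant as miR-425-5p at day 30, 31.9, 36.4 and 35.3 times at day 90, and 40.3, 44.9 and 23.8 times at day 210. Both the highest and the lowest ratio thus came from day 210, and the log2 ratios of 5.04 ± 0.19, 5.11 ± 0.10 and 5.13 ± 0.49 did not separate the ages (exact permutation p 0.932 over the 3 ages). Across the 9 libraries miR-191 and miR-425-5p varied with Pearson's r = 0.17 (exact permutation p = 0.653) and Spearman's rho = 0.23 (exact permutation p = 0.552). Without the 2 libraries farthest from the median of miR-191 r was -0.26, and without day 210 replicate 3 it was 0.51 (exact permutation p = 0.199). The strands of the miR-425 hairpin gave r = 0.62 and rho = 0.48 (exact permutation p = 0.0701 and 0.194), and those of the miR-191 hairpin r = 0.38 and rho = 0.17 (exact permutation p = 0.337 and 0.678). The relation between the miR-191 strands moved with the handling, to r = 0.60 with the same total and r = 0.83 for deviations from the age means. On such deviations miR-191 and miR-425-5p had r = -0.50. Of 4 relations as deposited, including miR-191 with miR-425-3p (r = 0.59, rho = 0.67), none passed (lowest adjusted exact permutation p 0.175 for r and 0.236 for rho). miR-191 and miR-425-3p had r = 0.79 without day 210 replicate 3 (exact permutation p = 0.0119, unadjusted) and r = 0.20 without the 2 libraries farthest from the median of miR-191, and their rho was 0.15 with the same total.

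The arm ratio of the miR-191 hairpin separated day 210 from the earlier ages, though not past the threshold after adjustment over the 28 tests. miR-191 was 1889, 1968 and 1708 times as abundant as mir-191-p3 at day 30, and 2009.7, 1730.0 and 2261 times at day 90. At day 210 it was 3034, 2988 and 2780 times as abundant, and all 3 libraries of that age, replicate 3 included, lay above the other 6. Of 94 hairpins with both arms measured, 18.1% lay wholly above day 30 in the same way and 17.0% wholly above day 90. On the log2 scale this ratio averaged 11.51 ± 0.07 at day 210, against 10.95 ± 0.19 at day 90 and 10.85 ± 0.11 at day 30 (SD, n = 3). The exact permutation test over the 3 ages gave p = 0.0143, and 0.3 after adjustment over the 28 tests. That adjustment could not have called a single measure, even at the smallest possible exact permutation p of 0.00357. The ratio of miR-425-5p to miR-425-3p, by contrast, ran from 2.78 to 3.43 at day 30, from 3.07 to 3.60 at day 90 and from 2.77 to 3.62 at day 210, and these ranges overlapped (exact permutation p 0.768).

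**Figure D2:**
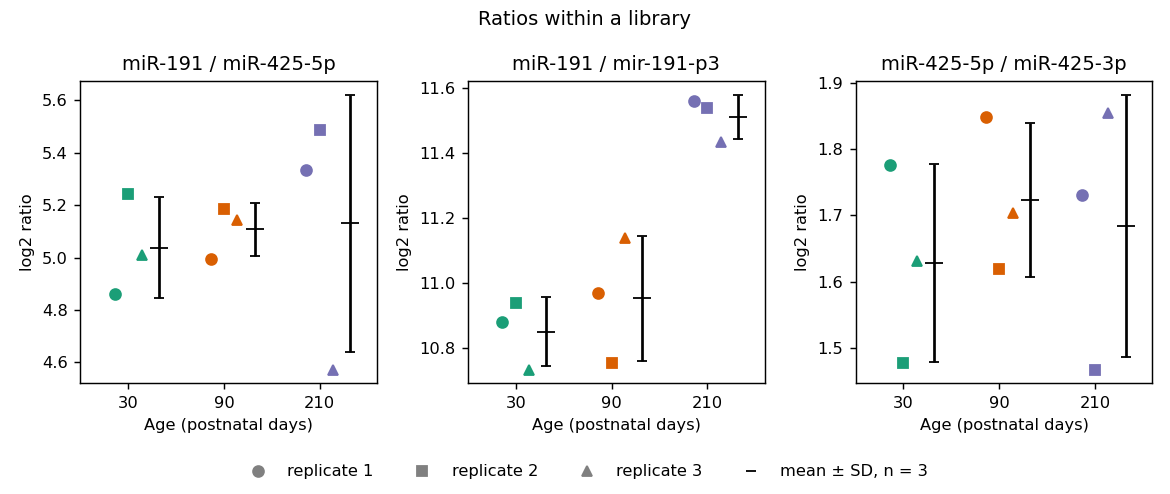
log2 ratios within each library (y axis, scale differs by panel and does not start at 0) by age in postnatal days (x axis), with replicates as symbols and the mean ± SD of 3 libraries as bars. In the middle panel the 3 day 210 libraries lie above the other 6; in the other panels the ages overlap.

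To set these arm ratios beside those of other hairpins, limma was fitted to the log2 arm ratios of the 94 precursors with both arms above 0 in every library, a step added after the ratios had been seen. The miR-191 ratio was higher at day 210 than at day 30 by 0.66 ± 0.15 (95% interval 0.32 to 1.0, limma adjusted p 0.0294 over the 94). It ranked 12 of 94 by the size of the rise, against a median over all precursors of 0.08. Of the 94, 6.38% were called in this comparison. Against day 90 the difference was 0.56 ± 0.15 (adjusted p 0.0602, and 0.0366 without day 210 replicate 3), where 7.45% were called. Between day 90 and day 30 it was 0.10 ± 0.15 (adjusted p 0.884, with 2.13% called). Over the 3 ages the adjusted p was 0.0412, with 9.57% called, and this call was lost in 8 of 9 fits with 1 library fewer. The call at day 210 against day 30 was lost in 6 of those 9, namely each fit without a day 30 library and those without day 90 replicate 1, day 210 replicate 1 or day 210 replicate 2 (adjusted p 0.106, 0.0960, 0.119, 0.0727, 0.0516 and 0.0977), with a change between 0.60 and 0.71. The miR-425 ratio differed by 0.06 ± 0.16 (95% interval -0.31 to 0.42, adjusted p 0.849), with a sign that turned in some alternatives. The difference between the changes of the 2 hairpins was not tested.

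**Figure D3:**
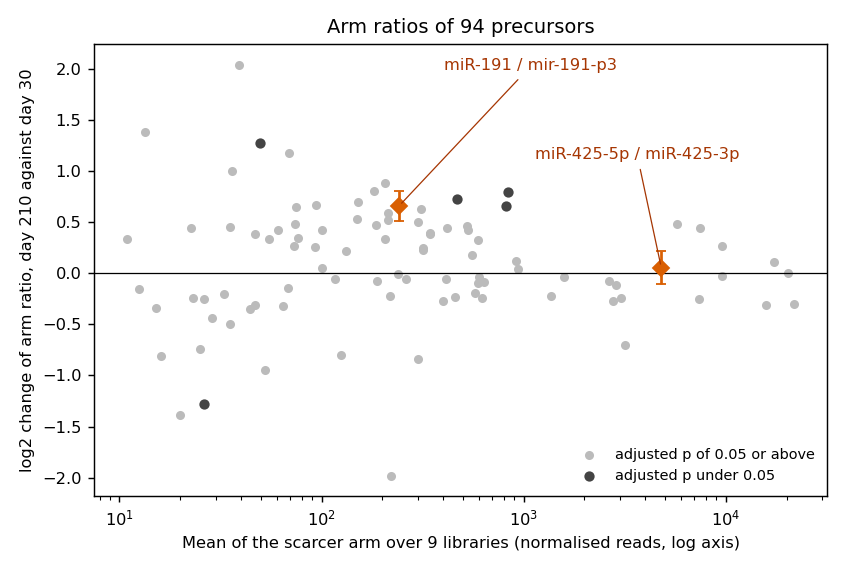
Change of the log2 arm ratio between day 210 and day 30 (y axis) against the mean normalised read number of the scarcer arm over 9 libraries (x axis, log scale) for 94 precursors; diamonds with bars are the miR-191 and miR-425 hairpins ± SE, of which miR-191 is called. The miR-191 hairpin stands at 0.66 and the miR-425 hairpin at 0.06.

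As proposed reference miRNAs the pair can be judged by its spread. Over the 9 libraries the coefficient of variation (SD over mean) was 16.2% for miR-191, 12.7% for miR-425-5p, 9.03% for miR-425-3p and 24.2% for mir-191-p3. Among the 156 sequences with a mean of at least 1000 the median was 20.3%, and the first 3 ranked 51, 23 and 11 from the smallest. Of 8 other miRNAs used as references, 6 were matched: as deposited, let-7a had the smallest coefficient of the 156 (5.82%), followed in this list by miR-24-3p (8.99%), miR-26a (9.45%), miR-103 (15.3%), miR-423-5p (15.8%) and miR-16 (26.2%). None of the 6 was called by limma in any comparison; their median log2 fold change was 0.19 at day 90 and 0.11 at day 210 against day 30, and -0.06 at day 210 against day 90, beside -0.04, -0.15 and -0.14 for all sequences. With the libraries rescaled to the same total, an alternative added after the data were seen, miR-191 came to 13.9% (rank 27), miR-425-5p to 15.0% (rank 35) and miR-425-3p to 10.4% (rank 12). The order of the references moved as well. miR-26a then stood at 7.57% (rank 6), let-7a at 7.64% (rank 7), miR-24-3p at 9.997% (rank 11), miR-423-5p at 14.2% (rank 28), miR-103 at 22.3% (rank 82) and miR-16 at 27.6% (rank 112), beside a median of 22.1%.

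**Figure D4:**
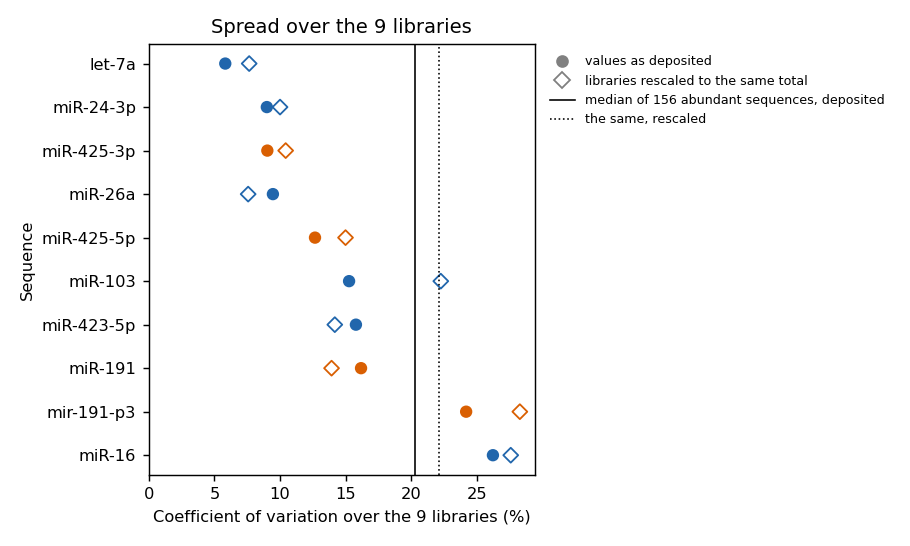
Coefficient of variation over the 9 libraries in percent (x axis, from 0) for the 4 sequences (orange) and 6 reference miRNAs (blue), from values as deposited (filled circles) and rescaled to the same total (open diamonds); vertical lines are the medians of 156 abundant sequences. miR-425-3p, miR-425-5p and miR-191 lie below both medians, and mir-191-p3 lies above them.

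The miRNAs of blood cells were set beside the pair. The 12 listed (both arms of miR-142, miR-223, miR-150, miR-342, miR-155-5p, miR-146a-5p, miR-146b, miR-181a, miR-451, miR-144 and miR-486) summed to 288061 to 308741 at day 30, 390366 to 396432 at day 90 and 342285 to 395112 at day 210, and none of them was listed at 0 throughout an age. At day 90 against day 30, miR-150 of mature lymphocytes was the 1 of 12 called (0.75 ± 0.12, limma adjusted p 0.0190; median of the list 0.42), against 1.11% of all tested. The other lymphoid miRNAs were not called, with miR-155-5p at 0.92, miR-181a at 0.27 and miR-342 at -0.23. At day 210 against day 30 miR-150 rose (0.94 ± 0.12, adjusted p 0.00388) and miR-486 of red cells fell by 1.23 ± 0.21 (adjusted p 0.00873), so that 2 of 12 were called against 9.21% of all tested, with a list median of 0.04. The other erythroid miRNAs, miR-144 at -1.23 and miR-451 at 0.03, were not called, nor were miR-155-5p (0.57), miR-342 (0.33) and miR-181a (0.05). At day 210 against day 90 miR-342 rose (0.56 ± 0.12, adjusted p 0.0205) and miR-146b, a miRNA induced in activated immune cells, fell by 1.89 ± 0.35 (adjusted p 0.0149), again 2 of 12, against 8.10% of all tested, with a list median of -0.47. The related miR-146a-5p (-0.64) and the lymphoid miR-150 (0.20), miR-155-5p (-0.35) and miR-181a (-0.22) were not called. In fits without 1 library, the miR-150 call at day 90 was lost without day 30 replicate 1, 2 or 3 or day 90 replicate 1 or 2 (limma adjusted p 0.0534 to 0.136), and its call at day 210 was kept in all 21 alternatives. The miR-486 call was lost without day 30 replicate 1 (0.0538), the miR-342 call without day 90 replicate 2 or 3 or day 210 replicate 2 (0.0631 to 0.0864), and the miR-146b call without day 90 replicate 1 or 2 (0.0715 and 0.0523). The day 90 sums lay above those of day 30, as did the miR-191 values, and the part of blood cells in that was not tested.

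Day 210 replicate 3, low in miR-191 and high in miR-425-5p, also stood apart from the other day 210 libraries in some marker sums. Its 2 miR-142 strands summed to 24535, against 13148 and 11528 in the other day 210 libraries, but within the 19565 to 26441 of day 90. Its 3 erythroid miRNAs summed to 24466 against 13267 and 8147, and day 30 replicate 1 (23622) and day 90 replicate 3 (23036) came close to it. miR-451 held most of the erythroid values at day 210 (mean 11129, against 4134 for miR-486 and 30.8 for miR-144). miR-486 was not raised in that library: its log2 change at day 210 against day 30 was -1.23 with all libraries and -1.16 without day 210 replicate 3. In day 210 replicate 3 the 4 lymphoid miRNAs, at 263116, lay close to the 263257 and 276686 of the other day 210 libraries. So did miR-223 of myeloid cells (5458 against 6354 and 4776). The smooth muscle pair miR-143-3p and miR-145-5p stood at 1467704 against 1260645 and 1516798, and the strands of endothelial miR-126 at 45711 against 37726 and 42390.3. None of these sequences was listed at 0 throughout an age, and their part in the low miR-191 value was not tested. Over all 9 libraries the matched miRNAs of striated muscle (4 of 4) summed to 5508 to 14892, of epithelium (3 of 6) to 159 to 719, of pancreas and liver (2 of 4) to 112 to 233, and of neurons (miR-9, 1 of 2) to 399 to 873. In day 210 replicate 3 the epithelial sum was 216 against 719 and 478 in the other day 210 libraries, and miR-9 stood at 873 against 546 and 604. Striated muscle stood there at 11424 against 12966 and 14892, and pancreas and liver at 138 against 165 and 112.

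The sequences whose pattern over the 9 libraries was most like that of miR-191 were sought among 402 other tested pig miRNAs by Pearson's r of log2 values, as a description; all share the scaling of their libraries. They were miR-7134-3p (r = 0.94), miR-92b-3p (r = 0.92) and miR-339 (r = 0.88, the entry with a mean of 67558), while the median r of the 402 was -0.08. The values of miR-339 are also listed under a second name with the same sequence, so that entry may stand for either. A more abundant entry also named miR-339 (mean 183581) was not among the 3. With shares in place of levels the r values were 0.86, 0.90 and 0.78. All 3 had, like miR-191, a lower value in day 210 replicate 3 than in the other day 210 libraries: miR-92b-3p, for example, stood at 7820, 9112 and 6385 at day 210. The 3 most like miR-425-5p were other sequences, namely miR-9 (r = 0.88), miR-27a (r = 0.86) and miR-155-5p (r = 0.85), the last induced in activated lymphocytes and macrophages. All 3 were highest among the day 210 libraries in replicate 3, where miR-155-5p stood at 5896 against 4039 and 3119. Both sets were picked by r over these 9 libraries, day 210 replicate 3 included. That they follow miR-191 or miR-425-5p in that library is thus part of the selection and no further likeness.

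**Figure D5:**
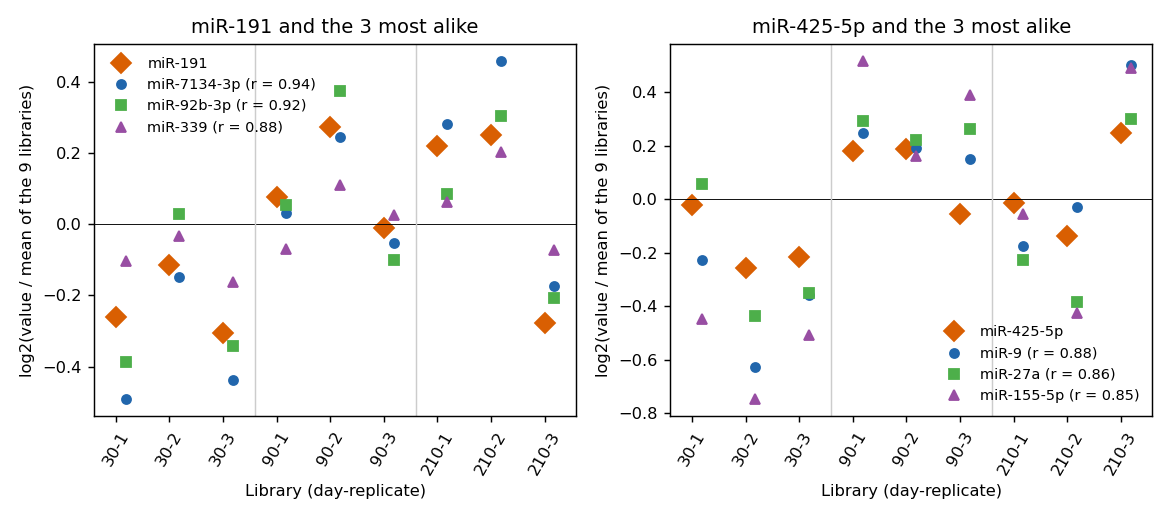
log2 of each value over the sequence's own mean of the 9 libraries (y axis) by library (x axis, day-replicate; grey lines part the ages) for miR-191 and miR-425-5p (diamonds) and the 3 most alike sequences of each, with Pearson's r. In day 210 replicate 3 the miR-191 set lies below its mean and the miR-425-5p set above its mean. The sets were picked by r over these same 9 libraries.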

How the data were processed

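The labels describe Trizol extraction of RNA, a TruSeq small RNA kit and ACGT101-miR, which discarded adapter dimers, uninformative reads, other RNA classes and repeats. Per the file headers the deposited values are normalised read numbers, a signal that the authors had scaled; the sources at hand do not name the aligner, genome build, miRNA database or scaling method. Of 980 entries, 5 that repeated another's sequence and values were dropped. log2(value + 1) was analysed with limma 3.58.1 (R 4.3.3), all 9 libraries sharing 1 estimate of the spread with a mean-variance trend. The 630 sequences reaching 5 in 3 or more libraries were tested, all 4 members among them. Called means a Benjamini-Hochberg adjusted p under 0.05, and fold changes are on the log2(value + 1) scale. Shares, ratios and correlations were tested with exact permutations of libraries (Python 3.11.15, scipy 1.17.1). The tests were tried on simulated data first. Intervals are at the 95% level. No raw counts are held, so counting intervals are not given.

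Members, lists (reference, blood cell and cell type markers) and tests were chosen with earlier results of these data known. Named sequences are the members, their 2 neighbours in mean level on either side, the 3 most alike in pattern, and the lists. miR-93, miR-25, miR-200a, miR-200c, miR-203, miR-375, miR-216 and miR-124 were not analysed here. Alternatives were other pseudocounts, filters, scalings and weights, a common floor for low values, pig miRNAs only, fits of 2 ages, a replicate block and leaving out each library. Replicate numbers were not taken to pair the libraries. Deviations from the age mean correlated at -0.10 to 0.19 between same-numbered libraries and at -0.15 to 0.11 between differently numbered ones. With 3 libraries per age this cannot exclude a pairing.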

Additional observations from a re-analysis of the deposited data

How the results depend on the processing

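The log2 fold changes of the 4 sequences, 252 values over 21 alternatives, had limma adjusted p from 0.0310 to 0.988, and 3 lay under 0.05, all of miR-191. With array weights, which let libraries count unequally, miR-191 came to 0.38 at day 90 and 0.44 at day 210 against day 30 (limma adjusted p 0.0403 and 0.0396), with 0.0286 over the ages. The third was 0.46 at day 210 against day 30 without day 210 replicate 3, where the fits without 1 library ran from 0.20 to 0.46 and, over the ages, from an adjusted p of 0.0359 to 0.493 (limma). Some estimates changed sign. Rescaling to the same total turned miR-425-5p from 0.20 to -0.034 and miR-425-3p from 0.14 to -0.090 at day 210 against day 30. At day 210 against day 90, array weights gave miR-191 0.07, and a median of ratios rescaling gave miR-425-3p 0.0039. The fits without 1 library gave -0.14 to 0.12 for miR-191, -0.18 to 0.013 for miR-425-5p and -0.10 to 0.061 for miR-425-3p.

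Without 1 library the share difference at day 210 against day 30 ran from -0.0460 to 1.04 points for miR-191 and from -0.0249 to 0.0133 for miR-425-5p, which was 0.0045 when the 3 most abundant other sequences were left out of the total. The log2 ratio of miR-191 to miR-425-5p differed by -0.019 to 0.17 at day 90 and -0.085 to 0.37 at day 210 against day 30, and by -0.15 to 0.30 at day 210 against day 90. That of miR-425-5p to miR-425-3p differed by -0.029 to 0.16 and -0.12 to 0.069 at day 210 against day 30 and day 90, and by -0.034 with array weights at day 210 against day 30. The correlation of miR-191 with miR-425-5p was -0.26 without the 2 farthest libraries.

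The fit of arm ratios and its alternatives were added after the data were seen. Fits without 1 library put the miR-191 arm ratio 0.60 to 0.71 higher at day 210 than at day 30 and 0.46 to 0.65 higher than at day 90, with limma adjusted p over the ages of 0.0338 to 0.152. Over all 15 alternatives the adjusted p at day 210 against day 30 ran from 0.0122 to 0.119 (limma). Against day 90 the difference stayed at 0.56 and was called with a trend, with array weights (0.56) or with the 73 precursors whose scarcer arm had a mean of at least 50 (0.56; limma adjusted p 0.0427, 0.0289 and 0.0348).

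The numbers called are out of 630 sequences unless another number tested is given. At day 90 against day 30 the number called was 81 with array weights, 13 with a common floor and 29 of 587 in a fit of those ages alone. At day 210 against day 30 it was 35 of 366 with a stricter filter and 92 with the same total (21 higher and 71 lower, against 29 and 29). In that comparison it was 109 with array weights, 38 with a common floor and 11 of 582 in a fit of those ages alone. At day 210 against day 90 it was 32 of 366 with a stricter filter, 24 without a trend and 100 with array weights. A fit of those ages alone called 14 of 573. Over the ages it was 37 without a trend and 168 with array weights. Without 1 library, with 611 to 621 sequences tested, the numbers ran from 1 to 20, 9 to 90, 8 to 112 and 20 to 136.

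The main fits did not treat libraries with the same replicate number as pairs. With a replicate block 1, 45, 47 and 56 sequences were called in these tests, in place of 7, 58, 51 and 65. The block left every member fold change uncalled. It gave 0.66 for the miR-191 arm ratio at day 210 against day 30 (limma adjusted p 0.0659) and an adjusted p of 0.1003 over the ages. Over 21 alternatives added after the data were seen, the blood cell calls were kept in 14 (miR-150 at day 90), 21 (miR-150 at day 210), 19 (miR-486), 15 (miR-342) and 18 (miR-146b), with no change of sign. The cause was not tested for any of these shifts. Depth limits mir-191-p3 most, since it rests on as few as 98 estimated reads. With 3 libraries per age an exact permutation p cannot fall below 0.1 between a pair of ages, or below 0.00357 over the 3 ages.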
